A study of Mus musculus with 10 samples.

Results

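The genes described here handle creatine, taurine and small amino acids in myeloid cells of the inflamed mouse spinal cord. They are 8 of the 55487 genes in the count table. Slc6a8, Slc36a2 and Cdo1 were selected on their measured difference between the same groups of libraries that are compared below, so their values are a description without a test. Slc6a6, Gatm, Gamt, Ckb and Csad were added as their pathway partners. The libraries came from male mice of a reporter strain on a C57BL/6 background, in which yellow fluorescent protein (YFP) follows the promoter of a single gene, with experimental autoimmune encephalomyelitis (EAE) at peak-disease. EAE is an autoimmune model of multiple sclerosis induced by immunisation with a myelin peptide. From each spinal cord, viable cells without CD3 and Ly6G and with CD45 and CX3CR1 were sorted into 200000 YFP+ cells and 100000 YFP− cells, and the paired fractions of 5 animals gave 5 libraries per group. Both groups thus shared genotype, sex, disease and gate and differed in the reporter, which marks transcription and not protein, and the CX3CR1 gate does not separate CNS-associated macrophages, microglia and monocyte-derived cells.

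Creatine is made from arginine and glycine in consecutive steps, enters cells through a sodium-dependent transporter and stores phosphate for ATP regeneration through creatine kinases. Taurine is made by oxidation and decarboxylation of cysteine or is taken up from outside, and it serves as an osmolyte and antioxidant. Glycine, alanine and proline cross membranes through proton-coupled and sodium-coupled carriers, some of which work in lysosomes, the compartment in which phagocytes digest engulfed protein.

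Library totals ranged from 28212174 to 35455643 counts, apart from the YFP− library of animal m234 with 8396863 counts. Levels are given as CPM by edgeR, the counts of a gene relative to the TMM-normalised total of its library, always for animals m2, m6, m234, m235 and m236 in that order. Since these are bulk samples, fewer cells of a type and less RNA per cell cannot be told apart. All 8 genes passed the filter on low counts, a CPM above 1 in at least 3 libraries, which left 13740 genes. Of these, 6.82% were higher and 6.15% lower in YFP+ cells at a false discovery rate (FDR, the adjusted p of edgeR's quasi-likelihood test) below 0.05. With an absolute log2 fold change above 1 as well, the shares were 0.56% higher and 0.888% lower. Scaled by total counts without TMM, 5.13% were higher and 9.32% lower at the FDR limit in edgeR.

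Slc6a8 (ENSMUSG00000019558, chromosome X, 73673150 to 73682502, plus strand, GRCm38) encodes the creatine transporter of the plasma membrane. Its level was 121, 142, 112, 120 and 114 CPM in YFP+ cells and 51.4, 67.5, 39.7, 61.1 and 56.5 CPM in YFP− cells. The 5 YFP+ values all exceeded the highest YFP− value, that of m6, in a gene selected on this difference. The mean was 122 ± 12.1 CPM (SD, n = 5) against 55.2 ± 10.5 CPM (SD, n = 5), a log2 fold change of 1.13 (SE 0.119). Within animals the log2 difference ran from 0.97 in m235 to 1.49 in m234.

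Both enzymes that make creatine had smaller fitted log2 differences than Slc6a8, which was selected for its difference. Gatm (ENSMUSG00000027199, chromosome 2, 122594467 to 122611303, minus strand) encodes the mitochondrial enzyme that joins arginine and glycine into guanidinoacetate. Its level ran from 260.5 to 354 CPM in YFP+ cells and from 294 to 381 CPM in YFP− cells, with a log2 fold change of −0.02 (SE 0.0962, edgeR FDR 0.913, higher in 3 of 5 animals). The ranges overlapped. Gamt (ENSMUSG00000020150, chromosome 10, 80258151 to 80261012, minus strand) encodes the methyltransferase that turns guanidinoacetate into creatine. It had 6.62, 6.24, 6.90, 6.60 and 8.15 CPM in YFP+ cells and 5.76, 5.71, 5.40, 5.39 and 5.66 CPM in YFP− cells. The groups did not overlap, as was the case for 6.15% of tested genes with YFP+ libraries above and 5.2% with them below. The log2 fold change of 0.30 (SE 0.0948) missed the limit in edgeR (FDR 0.0564, higher in 5 of 5 animals) and passed it with the animal as a block (edgeR FDR 0.0326) and in DESeq2 (FDR 0.0451), where 16.8% and 9.29% of all tested genes were higher.

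Ckb (ENSMUSG00000001270, chromosome 12, 111669361 to 111672338, minus strand) encodes the cytosolic brain-type creatine kinase, which transfers phosphate between creatine and ATP. Its level was 19.5, 20.9, 18.5, 10.1 and 20.9 CPM in YFP+ cells and 57.0, 34.5, 84.9, 18.3 and 30.5 CPM in YFP− cells. The YFP+ libraries were tightly grouped apart from m235, whereas the YFP− libraries spread widely, and the lowest of them reached into the YFP+ range. Ckb fell in YFP+ cells by 1.30 on the log2 scale (SE 0.351, edgeR FDR 0.0320, lower in 5 of 5 animals), past both limits. It was the 1 gene of the 5 partners that passed in edgeR without the animal block, while Slc6a6 and Gamt also passed with the block. Of all tested genes, 6.15% were lower at the FDR limit and 0.888% were lower past both limits. Ckb also passed the FDR limit with the animal as a block (log2 fold change −1.17, edgeR FDR 0.00166), in DESeq2 (FDR 0.0109) and in limma (FDR 0.0492). In these fits 18.3%, 9.51% and 6.12% of all tested genes were lower. In fits without the animal block the call was lost without any 1 of 6 libraries, which were the 5 YFP+ libraries (edgeR FDR 0.0653, 0.0580, 0.0532, 0.0601 and 0.0539) and the YFP− library of m2 (FDR 0.0741), and without both libraries of m2, m6, m234 or m236 (FDR 0.134, 0.0854, 0.0731 and 0.0627), and libraries were not left out under the block. Without the YFP− library of m234, log2 fold change was −0.96 (edgeR FDR 0.0490), within the fold change limit. Of the transcript stretches of 50 bases in Ckb, 21.9% also occur in Gm12892, which had 1.17 ± 0.414 CPM in YFP+ cells and 2.00 ± 1.13 CPM in YFP− cells (SD, n = 5), so part of the Ckb reads could have been counted there. Of all creatine kinase counts in the 10 libraries, 99.6% were from Ckb, with 30 counts for Ckm, 3 for Ckmt1 and 1 for Ckmt2.

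**Figure D1:**
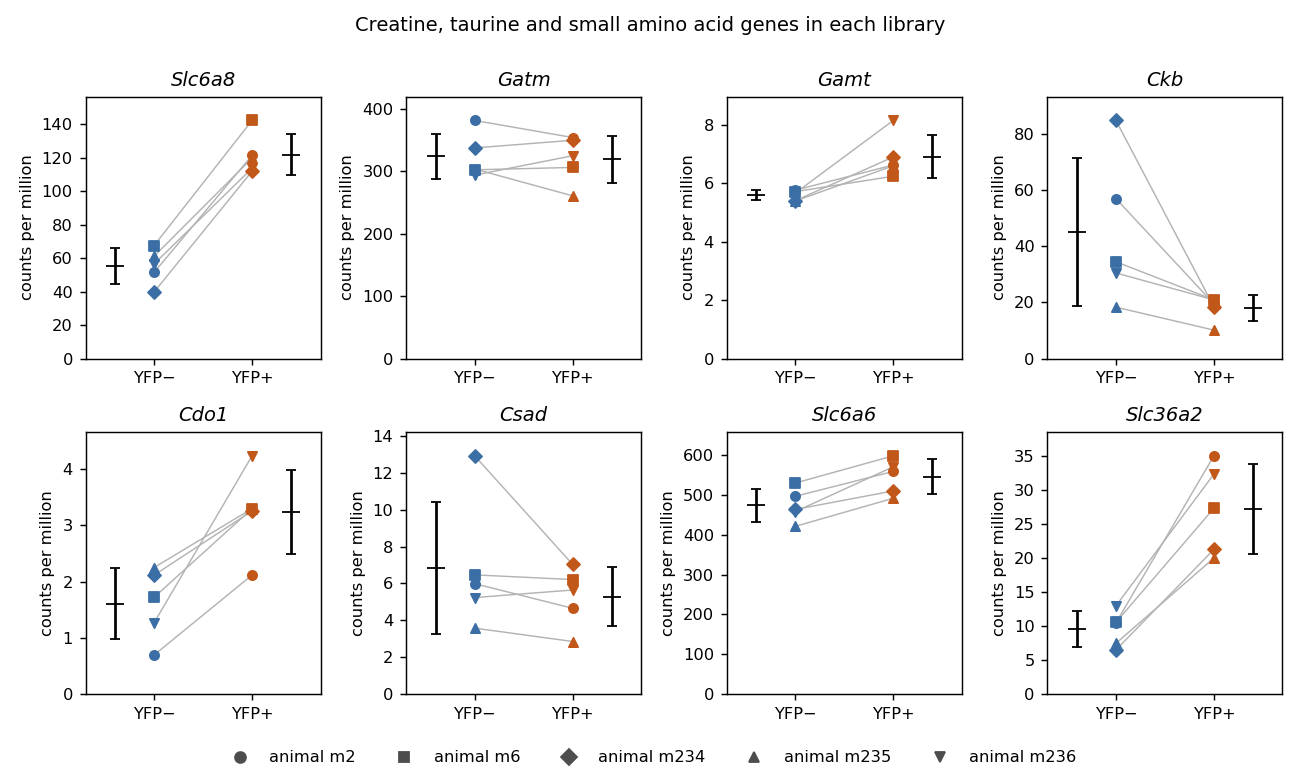
Level of the 8 genes (y axis, CPM, from 0) in the YFP− and YFP+ library of each of 5 animals (marker shape, joined by grey lines), with the group mean and SD as black bars. The YFP+ libraries lie above all YFP− libraries for Gamt and for Slc6a8 and Slc36a2, which were selected on their difference. Ckb in YFP− cells ranges from 18.3 to 84.9 CPM.

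Markers of microglia, the resident macrophages of the CNS parenchyma, were 1 of several lists set beside Ckb. The 6 microglia markers, of which Olfml3 was the most abundant and none was at 0, summed to 227, 215, 224, 127 and 260.4 CPM in YFP+ cells and 386, 233, 758, 160.4 and 292 CPM in YFP− cells. The YFP− library of m234 was highest and that of m235 lowest of the YFP− libraries for both Ckb and these markers. The same libraries were highest and lowest of the YFP− libraries for the sums of the B and plasma cell, oligodendrocyte and sorted population markers described below, and for Cx3cr1 among the last. The sum of the microglia markers was lower in YFP+ cells in 5 of 5 animals. Of the 6 markers, 0 passed the FDR limit in edgeR (4 at an unadjusted p below 0.05) and in limma, 1 was lower in DESeq2, beside 9.51% of all tested genes, and 5 were lower in edgeR with the animal as a block, beside 18.3% of all tested genes. The part of these populations in the Ckb result was not tested.

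**Figure D2:**
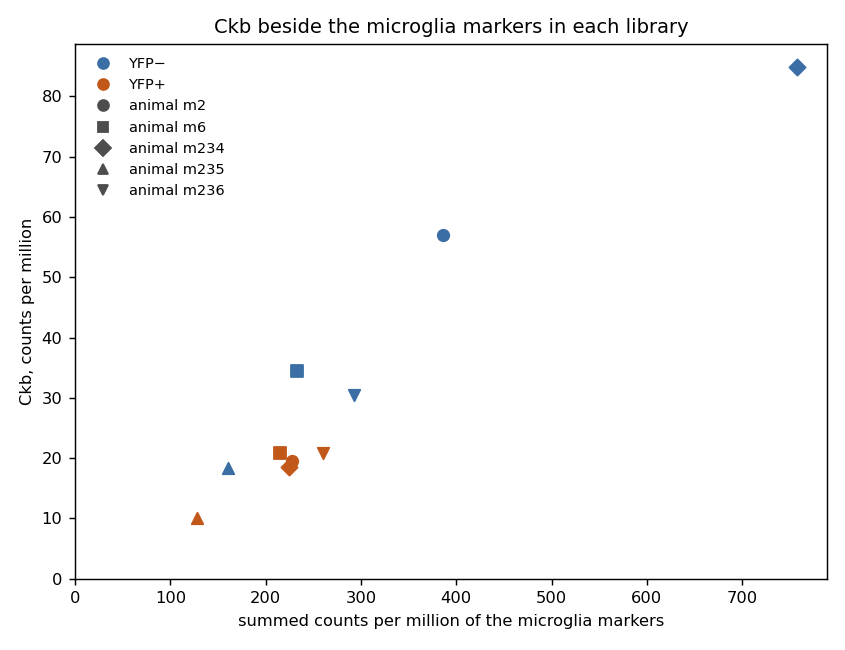
Ckb level (y axis, CPM) against the summed level of 6 microglia markers (x axis, CPM) in the 10 libraries, with colour for the group and marker shape for the animal. The YFP− library of m234 lies farthest out on both axes, at 84.9 CPM for Ckb.

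Cdo1 (ENSMUSG00000033022, chromosome 18, 46713193 to 46728395, minus strand) encodes cysteine dioxygenase, which commits cysteine to oxidation towards taurine and sulfate. It was low, with 2.12, 3.30, 3.26, 3.30 and 4.24 CPM in YFP+ cells and 0.693, 1.72, 2.11, 2.25 and 1.27 CPM in YFP− cells. YFP+ cells were above YFP− cells in each animal, but the YFP+ library of m2 lay below the YFP− library of m235. Averages were 3.24 ± 0.753 and 1.61 ± 0.639 CPM (SD, n = 5). The fitted log2 fold change of 1.06 (SE 0.285) rested on 503 counts over the YFP+ and 203 over the YFP− libraries.

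Csad (ENSMUSG00000023044, chromosome 15, 102176999 to 102204724, minus strand) encodes the decarboxylase that acts after Cdo1 on the way to hypotaurine. It ran from 2.84 to 7.03 CPM in YFP+ cells and from 3.57 to 12.9 CPM in YFP− cells, with the highest value again in the YFP− library of m234. The log2 fold change was −0.31 (SE 0.312, edgeR FDR 0.546, higher in 1 of 5 animals), and −0.01 without that library. Slc6a6 (ENSMUSG00000030096, chromosome 6, 91684053 to 91759066, plus strand) encodes the taurine transporter and was abundant, with 559, 598, 510.3, 492 and 571 CPM in YFP+ cells and 497, 530.1, 464, 421 and 458 CPM in YFP− cells. YFP+ cells were higher in each animal by a small step, although the groups overlapped. Its log2 fold change of 0.20 (SE 0.0764) did not pass the test (edgeR FDR 0.0969, higher in 5 of 5 animals) but did so with the animal as a block (edgeR FDR 0.00260).

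Slc36a2 (ENSMUSG00000020264, chromosome 11, 55158470 to 55185077, minus strand) encodes a proton-coupled transporter of glycine, alanine and proline. It had 35.0, 27.3, 21.2, 19.9 and 32.3 CPM in YFP+ cells and 10.4, 10.5, 6.46, 7.43 and 12.9 CPM in YFP− cells. The groups were fully separated, with m236 highest in YFP− cells and m235 lowest in YFP+ cells. Slc36a2 was selected on this difference, and 6.15% of all tested genes had all YFP+ libraries above all YFP− libraries. Averages were 27.1 ± 6.60 and 9.55 ± 2.60 CPM (SD, n = 5), the fitted log2 fold change was 1.47 (SE 0.199), and the difference within animals ran from 1.32 in m236 to 1.75 in m2. Of its stretches of 50 bases, 3.70% are shared with the neighbouring paralogue Slc36a1.

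Levels of different genes were compared per kilobase of exon (CPM per kilobase). In YFP+ cells the order was Gatm with 133 ± 15.9, Slc6a6 with 88.3 ± 7.12, Slc6a8 with 30.7 ± 3.05, Ckb with 12.2 ± 3.07, Slc36a2 with 11.2 ± 2.72, Gamt with 6.66 ± 0.71, Csad with 2.31 ± 0.707 and Cdo1 with 2.03 ± 0.472 (SD, n = 5). Ckb and Slc36a2 did not differ beyond their spread on this scale, and neither did Csad and Cdo1. In YFP− cells the mean of Ckb, at 30.6 ± 17.9, stood before that of Slc6a8, at 13.9 ± 2.65, and the mean of Gamt, at 5.39 ± 0.17, before that of Slc36a2, at 3.93 ± 1.07 (SD, n = 5). The ranges of Ckb and Slc6a8 overlapped there, with Ckb below Slc6a8 in m235, as did those of Gamt, Slc36a2 and Csad, with Csad above both others in m234. Thus transcripts of the first enzyme of creatine synthesis and of the taurine transporter led in both groups, while those of the taurine-forming enzymes had the lowest means of the 8 genes.

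The other genes of these pathways were described from 5 lists, chosen with earlier results of these data known. Counts over the lists, here and below, are therefore a description and no independent support. The lists held 52 genes besides the 8, 30 of them tested. In YFP+ cells 6 rose, 2 fell and 22 did not pass the limit (edgeR FDR), beside the 6.82% and 6.15% of all tested genes given above. Their median log2 fold change was 0.03, against −0.0022 over all tested genes. With the animal as a block, 9 rose and 6 fell, beside 16.8% and 18.3% of all tested genes in that fit, and the added genes were Gclc, Gclm and Slc7a11 above and Got1, Slc38a9, Slc3a2 and Slc6a9 below. No other gene of the creatine list was tested. Of 4 tested genes of cysteine oxidation and taurine, 0 passed the limit in edgeR (0 also at an unadjusted p below 0.05), DESeq2 or limma, and Got1 was lower with the animal as a block.

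The list of cysteine supply and sulfide oxidation held 3 genes that rose among 9 tested, beside 6.82% of all tested genes. The median log2 fold change of the list was 0.27. Tst encodes a mitochondrial sulfurtransferase (rhodanese) that moves sulfur between thiosulfate and acceptors. Its mean was 7.72 ± 0.841 CPM in YFP+ cells and 2.88 ± 0.621 CPM in YFP− cells (SD, n = 5), without overlap, and it rose by 1.38 on the log2 scale (SE 0.141, edgeR FDR 0.000203, 5 of 5 animals). Next to it in the genome lies Mpst, which encodes mercaptopyruvate sulfurtransferase and rose from 17.7 ± 1.68 to 22.0 ± 0.631 CPM (SD, n = 5; log2 fold change 0.32, SE 0.0709, edgeR FDR 0.0141, 5 of 5 animals). Ethe1, the mitochondrial persulfide dioxygenase, rose by 0.22 (SE 0.0599, edgeR FDR 0.0307, 5 of 5 animals). The opposite strand of Ethe1 carries Zfp575 over 6.67% of its exons, and no source used here states whether strand entered the counting, so reads of the pair cannot be told apart in that stretch. The most abundant gene was Slc3a2, the heavy chain of the cystine and other amino acid exchangers, with 631 ± 53.0 and 694 ± 22.5 CPM (SD, n = 5; log2 fold change −0.14, edgeR FDR 0.187, higher in 0 of 5 animals). The genes of transsulfuration, Cbs and Cth, had 14 and 27 counts over all libraries and were not tested.

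Among 9 tested transporters of small neutral amino acids, 3 rose and 1 fell, beside 6.82% higher and 6.15% lower of all tested genes. Slc36a1, a proton-coupled carrier of the lysosomal membrane, rose from 104 ± 7.63 to 137 ± 11.3 CPM (SD, n = 5; log2 fold change 0.40, SE 0.0699, edgeR FDR 0.00402, 5 of 5 animals). Slc36a4, of the same family as Slc36a1 and Slc36a2, rose by 0.42 (SE 0.0712, edgeR FDR 0.00328, 5 of 5 animals). Slc38a7, which exports glutamine from lysosomes, rose by 0.41 (SE 0.0920, edgeR FDR 0.0141, 5 of 5 animals). Of the other Slc36 genes, Slc36a2 was selected for its difference and Slc36a3 had 4 counts in all. Slc38a1, a sodium-coupled carrier of glutamine at the plasma membrane, fell by 0.38 on the log2 scale (SE 0.0959, edgeR FDR 0.0232, lower in 5 of 5 animals). Slc38a2, the most abundant of the list, had 519 ± 60.6 and 509 ± 52.4 CPM (SD, n = 5; log2 fold change 0.03, edgeR FDR 0.881).

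Of 8 tested enzymes of proline and glycine, 1 passed the limit, beside 6.82% higher and 6.15% lower of all tested genes. Aldh18a1 encodes the synthase that starts proline and ornithine formation from glutamate. It fell from 27.5 ± 4.74 to 17.4 ± 2.46 CPM (SD, n = 5; log2 fold change −0.66, SE 0.125, edgeR FDR 0.00640, lower in 5 of 5 animals), and its groups did not overlap. Gcsh, a subunit of the glycine cleavage system and the most abundant of the list, had 40.2 ± 3.56 and 42.3 ± 3.62 CPM (SD, n = 5; log2 fold change −0.08, edgeR FDR 0.534).

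Some of these calls, made without the animal block, were lost when libraries were left out, and libraries were not left out under the block. The Ethe1 call was lost in edgeR without the YFP+ library of m2, m6, m235 or m236 (FDR 0.0632, 0.0677, 0.0599 and 0.0537) or the YFP− library of m2 or m6 (FDR 0.0708 and 0.0771), and the Slc38a1 call without the YFP− library of m2 (FDR 0.0544). With animal m2, m6, m235 or m236 left out as a pair, Ethe1 missed the limit (edgeR FDR 0.134, 0.143, 0.0662 and 0.0797), and without those of m2, m6, m234 or m236, Slc38a1 did (edgeR FDR 0.0595, 0.0722, 0.0663 and 0.0685). Without both libraries of m2 or of m6, Mpst (edgeR FDR 0.0753 and 0.0865) and Slc38a7 (edgeR FDR 0.0714 and 0.0638) also missed it, leaving 3 genes that rose, while 2.73% and 2.64% of all tested genes were higher in edgeR in these fits against 6.82% with all libraries. The fitted log2 fold changes moved little, to 0.31 and 0.30 for Mpst and 0.41 and 0.43 for Slc38a7 without m2 and m6, and over all fits with libraries or animals left out they ran from 0.19 to 0.27 for Ethe1 and from −0.44 to −0.32 for Slc38a1. Tst, Slc36a1, Slc36a4 and Aldh18a1 passed the FDR limit in edgeR without any 1 library or animal.

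**Figure D3:**
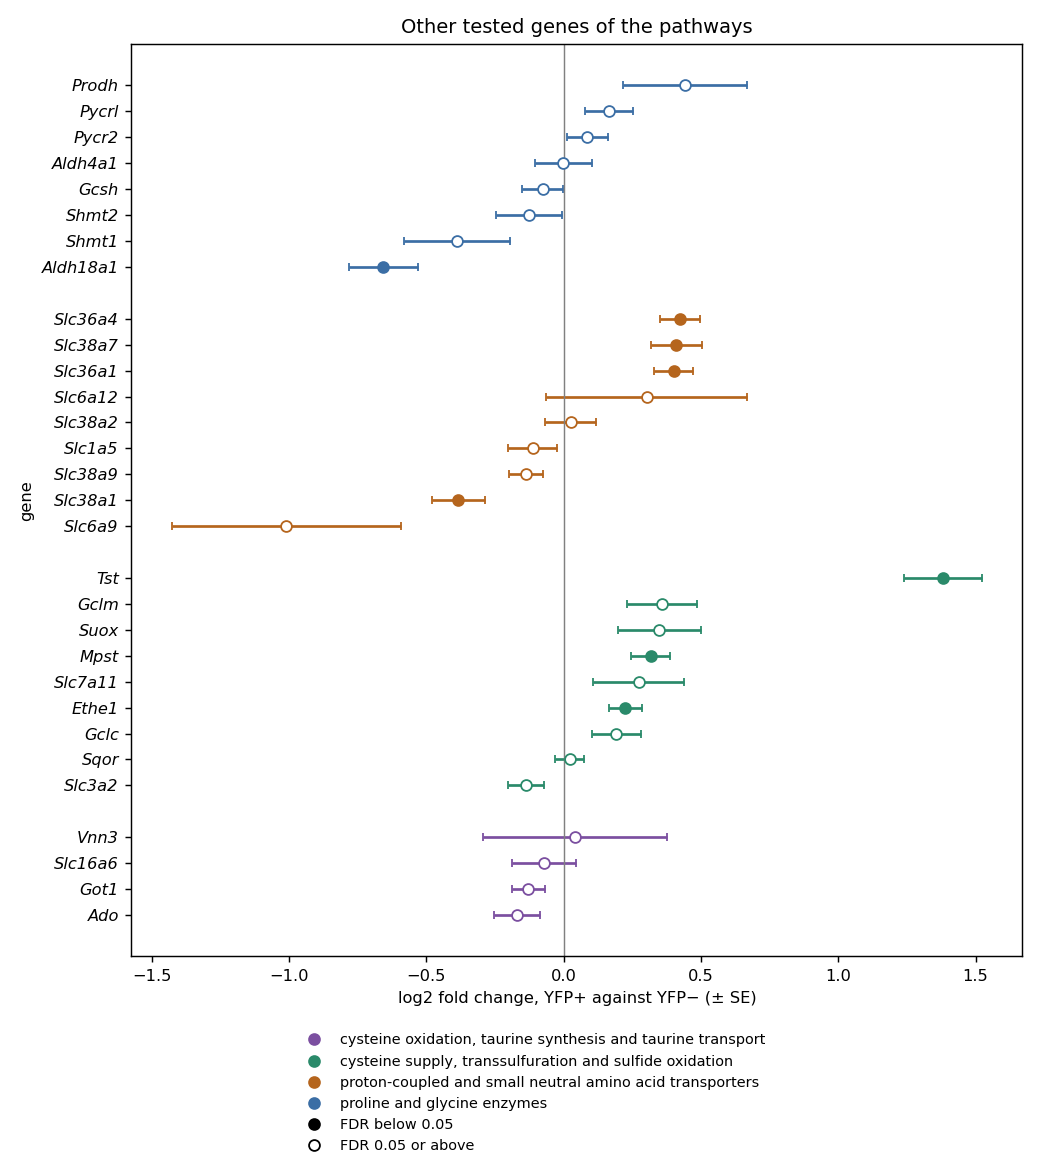
Fitted log2 fold change of YFP+ against YFP− cells with its SE (x axis) for the 30 other tested genes of the pathways (y axis), coloured by list, filled where the edgeR FDR was below 0.05. Tst, at 1.38, lies farthest to the right, and Slc6a9, at −1.01 with an SE of 0.416, is not filled.

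The genes whose pattern over the 10 libraries was most like that of the selected genes were found by the root mean square difference of log2 CPM after centring each gene on its mean. For Slc6a8 these were Agap1 (0.0864), Junos (0.143) and Gm14328 (0.156), against a median of 0.637 over all tested genes. For Slc36a2 they were Mrgpre (0.246), Baiap2l1 (0.262) and Tst (0.268), against a median of 0.846. For Cdo1 they were Rasd1 (0.348), Zfp469 (0.372) and Gdpd1 (0.375), against 0.731. A gene with the same level in all libraries would lie at 0.613 from Slc6a8, 0.828 from Slc36a2 and 0.707 from Cdo1, close to these medians. The selected genes were chosen on their difference between these same libraries, so the matches are a description and no independent support. The closest match of Slc6a8 was nearer than that of either other gene. Slc6a8 also had the most counts of them, with 26611 against 5519 for Slc36a2 and 706 for Cdo1. The part of counting noise in this order was not tested.

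Markers of other cell types were set beside these results because the gate can hold several populations. Of the lists, T cells and neutrophils were to be removed by the sort, through CD3 and Ly6G. The 6 markers of the sorted population, led by Csf1r, summed to between 4365 and 5901 CPM in the 10 libraries. Of these 6, Cd68 (log2 fold change 0.58, edgeR FDR 0.00155) and Itgam (0.35, edgeR FDR 0.0385) were higher in YFP+ cells, beside 6.82% of all tested genes, while Cx3cr1, the gene of the gate, had a log2 fold change of −1.01 without passing the limit (edgeR FDR 0.153, lower in 5 of 5 animals). The 6 T cell markers, led by Cd4, summed to at most 1.86 CPM, the 6 neuronal markers, led by Snap25, to at most 0.361 CPM and the 6 fibroblast markers, led by Col1a1, to at most 4.24 CPM. No marker on any list was at 0 in all 10 libraries. The 6 oligodendrocyte markers, led by Mbp, summed to between 137 and 197 CPM and were higher in YFP+ cells in 4 of 5 animals.

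The sums of the other lists differed in 1 direction in all 5 animals, although single markers of some lists went the other way. The calls below are read beside the 6.82% higher and 6.15% lower among all tested genes. The 6 markers of border-associated macrophages, led by Mrc1, summed to 133, 83.6, 49.8, 57 and 73.5 CPM in YFP+ cells and 55.6, 34.8, 18.7, 22.7 and 28.1 CPM in YFP− cells, and both tested markers, Mrc1 and Pf4, were higher in edgeR. The 6 monocyte markers, led by Lyz2, summed to 16458, 14805, 13211, 13097 and 20768 CPM in YFP+ cells and 10598, 10846, 8478, 11962 and 15833 CPM in YFP− cells. This sum was higher in YFP+ cells and was carried by Lyz2 (log2 fold change 0.65, edgeR FDR 0.00764). Chil3 was higher in 5 of 5 animals without passing the limit (log2 fold change 0.34, edgeR FDR 0.664). Ccr2 (−1.12, edgeR FDR 0.00339) and Plac8 (−2.19, edgeR FDR 0.000745) were lower, and Ly6c2 was lower in 5 of 5 animals without passing the limit (edgeR FDR 0.338). The 7 neutrophil markers, led by Mmp8, summed to 203, 219, 131, 321 and 278 CPM in YFP+ cells and 101, 152, 64.7, 184 and 185 CPM in YFP− cells. Mmp8 made up most of this sum and did not pass the limit (edgeR FDR 0.0878, higher in 5 of 5 animals), whereas S100a9 was lower (log2 fold change −3.40, edgeR FDR 0.00977), Ltf was lower in 5 of 5 animals without being tested, and Ly6g had 14 counts in all. The 7 dendritic cell markers, led by Clec9a, summed to 20.9, 13.4, 23.8, 13.7 and 9.03 CPM in YFP+ cells and 38, 22.4, 38.4, 25.4 and 20 CPM in YFP− cells. The 6 B and plasma cell markers, led by Ighm, summed to 8.71, 8.11, 8.19, 4.03 and 10.5 CPM in YFP+ cells and 36.6, 23.2, 47.1, 18.3 and 27.7 CPM in YFP− cells. Both sums were lower in YFP+ cells. Of 5 tested dendritic cell markers, 4 were lower in edgeR, while Clec9a had a log2 fold change of 0.28 (edgeR FDR 0.547, higher in 4 of 5 animals), and both tested B and plasma cell markers, Ighm and Jchain, were lower. The 6 endothelial and pericyte markers, led by Flt1, summed to 94.3, 66.9, 120.0, 93.1 and 93.8 CPM in YFP+ cells and 129, 111, 125, 148 and 144 CPM in YFP− cells. The 6 astrocyte markers, led by Slc1a2, summed to 19.7, 21, 28.5, 22.2 and 18.4 CPM in YFP+ cells and 22.3, 22.4, 32, 32 and 27.4 CPM in YFP− cells. Both sums were lower in YFP+ cells. Of 3 tested endothelial and pericyte markers, Flt1 and Kdr were lower in edgeR, whereas the 1 call among 5 tested astrocyte markers was Gja1, which was higher (log2 fold change 1.18, edgeR FDR 0.00443, higher in 5 of 5 animals). The part of these populations in the results above was not tested.

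Promoters of the genes that passed the test are shown as sequence context, for Ckb as the partner that fell and for 3 pathway genes that share the E-box, which Ckb lacked. RefSeq (GRCm38.p6) windows from upstream to just past the start were at hand for 6 of the 8 other pathway genes that passed the limit and for 4 of the 8 genes described first. Both strands were searched for motifs chosen after the calls were known, which stand in capitals. The TATA box was read as TATAAA. The E-box was read as CACGTG. The CCAAT box was read by the letters of its name. Over all 32817 windows, 13.6% held the TATA box, 37.4% the CCAAT box and 7.15% the E-box. The Ckb window held a TATA box and 2 CCAAT boxes. Of the other members with windows, Gatm held 2 CCAAT boxes, 1 of 2 Csad windows held 1 and Gamt held 0. None of these members held the TATA box or the E-box. Of the 6 pathway genes, 0 held the TATA box, 2 the CCAAT box and 3 the E-box, the last being Slc36a1 and Slc38a7, which rose, and Aldh18a1, which fell. A gene was counted if any of its windows held the motif, and Mpst had 3 windows and Ethe1 2. The shares over all windows are of windows and not of genes.
Ckb, chr12:111672289-111672588, minus strand: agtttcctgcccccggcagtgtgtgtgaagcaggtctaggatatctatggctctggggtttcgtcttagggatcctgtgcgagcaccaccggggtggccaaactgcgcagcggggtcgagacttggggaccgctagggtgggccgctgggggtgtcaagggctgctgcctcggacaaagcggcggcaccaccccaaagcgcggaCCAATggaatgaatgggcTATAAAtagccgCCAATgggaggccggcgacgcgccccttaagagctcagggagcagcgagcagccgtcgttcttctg
Slc36a1, chr11:55204090-55204389, plus strand: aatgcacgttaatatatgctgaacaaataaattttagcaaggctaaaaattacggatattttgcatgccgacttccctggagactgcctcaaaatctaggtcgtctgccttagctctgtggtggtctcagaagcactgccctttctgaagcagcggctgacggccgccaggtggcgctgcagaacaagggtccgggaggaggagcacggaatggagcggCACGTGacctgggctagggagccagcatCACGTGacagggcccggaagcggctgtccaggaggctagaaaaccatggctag
Slc38a7, chr8:95853442-95853741, minus strand: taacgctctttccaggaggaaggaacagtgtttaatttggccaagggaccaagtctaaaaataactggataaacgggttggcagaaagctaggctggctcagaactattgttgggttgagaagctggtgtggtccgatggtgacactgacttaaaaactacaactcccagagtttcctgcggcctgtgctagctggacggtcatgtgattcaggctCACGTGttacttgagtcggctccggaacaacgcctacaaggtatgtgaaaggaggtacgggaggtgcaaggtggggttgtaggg
Aldh18a1, chr19:40588414-40588713, minus strand: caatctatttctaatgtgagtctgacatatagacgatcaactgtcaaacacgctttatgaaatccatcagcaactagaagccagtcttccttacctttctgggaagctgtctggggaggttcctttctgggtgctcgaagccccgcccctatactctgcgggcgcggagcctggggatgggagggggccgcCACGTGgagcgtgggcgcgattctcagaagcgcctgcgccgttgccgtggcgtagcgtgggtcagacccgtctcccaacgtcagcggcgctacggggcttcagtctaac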

How the data were processed

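RNA of sorted spinal cord cells was sequenced from 5 YFP+ and 5 YFP− libraries. The authors deposited raw counts per gene. They prepared strand-marking libraries, aligned reads with STAR to GRCm38 (version 2.7.10b per the submitters' processing notes) and counted reads over Ensembl genes, and no source used here states whether strand entered the counting.

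From the deposited counts, genes with a CPM above 1 in at least 3 libraries were fitted with edgeR 4.0.16 (quasi-likelihood test, TMM normalisation, group as the only term, R 4.3.3), with Benjamini-Hochberg adjustment over all 13740 genes tested. DESeq2 1.42.0 and limma 3.58.1 (limma-trend, prior count 2), other scalings, other filters, libraries or animals left out and an animal block were alternatives. The edgeR fit with and without the block, limma and DESeq2 were also run on 1 simulated data set. In it the share of false calls was above the FDR limit for each, and highest in DESeq2. The simulated libraries were independent, without an animal effect, so this run cannot show how the fits behave on paired libraries. Library totals ran from 8396863 to 35455643 counts, so low genes are least precise in the smallest library. Exon lengths and shared stretches of 50 bases came from GENCODE vM21 basic transcripts.

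Libraries of the same number in the labels come from the same animal. Deviations from the group mean correlated at 0.361 to 0.664 within an animal and at −0.367 to 0.0675 between animals.

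The members and lists were chosen with earlier results of these data known. Named genes were all 8 members, wider pathway genes past FDR 0.05 and the most abundant gene of each list, the 3 genes of nearest pattern for each selected gene, and of each marker list the most abundant gene and those at 0. Names beyond these were chosen after their values were seen. The gene that drives the reporter and 1 microglia marker are not reported here. Pycr3 is listed under its older symbol Pycrl.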

Additional observations from a re-analysis of the deposited data

Results flagged for a closer look

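The Ckb level of the YFP+ library of animal m235 was 10.1 CPM, and the next lowest YFP+ library had 18.5 CPM. The gap took up 0.772 of the range of the group, above the limit of 0.71 for 5 libraries. The YFP− library of the same animal was also the lowest of its group, at 18.3 CPM. It was the 1 group that stood out of 32 groups examined, and at this limit about 1 in 20 groups would by chance.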

How the results depend on the processing

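All 8 genes were refitted with DESeq2, limma-trend, other size factors, total counts, other filters, an animal block, and libraries or animals left out. Slc6a8, Slc36a2 and Cdo1 kept their direction, with leave-out log2 fold changes of 1.04 to 1.21, 1.37 to 1.60 and 0.85 to 1.25. Gamt passed the limit in DESeq2 (log2 fold change 0.30, FDR 0.0451) and with the replicate block (0.30, FDR 0.0326), and so did Slc6a6 with the block (0.21, FDR 0.00260). The Ckb log2 fold change ran from −1.49 to −0.96 with libraries or animals left out (edgeR FDR 0.0103 to 0.134), and the cause was not tested. With libraries or animals left out, 3 to 6 pathway genes rose and 1 to 3 fell, beside 2.64% to 7.63% higher and 2.08% to 6.70% lower of all tested genes. With the replicate block 9 rose and 6 fell, and in DESeq2 7 rose and 2 fell, beside 9.29% and 9.51% of all tested genes. The block changed no other partner's call. All alternatives gave values. With total counts 5 rose and 2 fell, beside 5.13% higher and 9.32% lower of all tested genes. Ethe1 also missed the limit with total counts (FDR 0.0546) and without a filter (FDR 0.0638). Depth limits Cdo1, with 18 counts in the YFP− library of m234.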
